A study of Mus musculus with 14 samples.

Results

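The genes described here encode the signalling chains of the T cell receptor complex and the coreceptors that divide T cells into helper and cytotoxic lineages. They are Cd3g, Cd3d, Cd3e and Cd247, which encode the CD3 chains, Cd8a, Cd8b1 and Cd4, which encode the coreceptors, and Zbtb7b, which encodes the helper lineage factor ThPOK. They were found in the counts by gene symbol, 8 of the 24091 listed genes, and all 8 were among the 12248 genes that passed the filter on low counts. RNA was sequenced from T cells sorted from the spleen of 8 Mir142+/+BCR-ABL mice, the model of chronic phase (CP) chronic myeloid leukemia (CML), and 6 Mir142-/-BCR-ABL mice, the model of blast crisis (BC), with 1 library per mouse. Both groups carried the SCLtTA and BCR-ABL transgenes, in which a tetracycline-regulated activator under control of the stem cell gene SCL drives BCR-ABL, and in both the transgene had been on for 3 weeks after tetracycline was withdrawn. The study used male and female C57BL/6 mice with the CD45.2 allele, aged 6 to 10 weeks, and lists no further treatment for these samples. Mir142 is missing from all tissues of the Mir142-/- mice, so its loss in the T cells and the blast crisis around them cannot be told apart. No mice without BCR-ABL are among the samples.

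The T cell receptor recognises antigen but has no signalling tail of its own. The chains CD3γ, CD3δ and CD3ε and the ζ chain (Cd247) assemble with it, bring it to the cell surface and carry the tyrosine motifs that are phosphorylated by the kinase Lck and then bind the kinase ZAP-70. CD4 binds MHC class II and CD8 binds MHC class I, and both bring Lck to the receptor. CD8 is either a heterodimer of CD8α and CD8β, the usual coreceptor of cytotoxic T cells, or a homodimer of CD8α, which is also found on intraepithelial lymphocytes and on a subset of dendritic cells. ThPOK holds cells in the CD4 lineage and represses CD8 lineage genes, and Runx3 acts against it in CD8 cells.

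The deleted gene was read first. Mir142 had 302 to 650 reads in the CP CML libraries and 0 in every BC CML library, at least 146.6-fold lower when 3 reads are allowed per library. A microRNA recognises its targets mainly by bases 2 to 8 from its 5′ end, the seed. The mature sequences of the deleted microRNA (RefSeq, GRCm38.p6, plus strand, chr11:87756867-87756887 for the 5p arm and chr11:87756903-87756925 for the 3p arm) are shown because the matches below are read against them, with the seed in capitals.
mmu-miR-142a-5p: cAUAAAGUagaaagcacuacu
mmu-miR-142a-3p: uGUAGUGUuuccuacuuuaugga
The longest annotated 3′UTR of each gene (GENCODE vM21, mm10) was searched on its own strand for 3 motifs per arm, which are ACACTACA, ACACTAC and CACTACA for 3p and ACTTTATA, ACTTTAT and CTTTATA for 5p. The 8-base motif of each arm contains both of its 7-base motifs, and a 7-base match was counted only outside an 8-base one. None of the 8 genes held an 8-base motif. Cd8a, Cd4 and Cd247 held 7-base matches, shown in capitals with their flanks because these genes are also among those that differed between the groups.
Cd8a, 3p, bases 2289 to 2295 of its 3′UTR, chr6:71379156-71379162, plus strand: ccctactattACACTACtaaacttgca
Cd8a, 5p, bases 1878 to 1884, chr6:71378745-71378751, plus strand: caccagcatgCTTTATActctataaac
Cd4, 3p, bases 973 to 979, chr6:124865266-124865272, minus strand: agagccaagcCACTACAtggaacacag
Cd247, 5p, bases 2094 to 2100, chr1:165871059-165871065, plus strand: tcatggatctCTTTATAtggacaatat
Of the tested genes with a 3′UTR, 30.67% held a match to either arm (3528 of 11503), beside 3 of the 8 genes here. Cd8a, with a match to each arm, was higher in BC CML, whereas Cd4 and Cd247, with 1 match each, were lower. Cd3g held none of these motifs in its 3′UTR of 363 bases. A match is a stretch of letters, and binding was not measured.

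Of the 8 genes, Cd3g and Cd8a rose in BC CML T cells and Cd247 and Cd4 fell. Cd3d, Cd3e, Cd8b1 and Zbtb7b did not pass the test. The 4 that passed stand beside 65.2% of all tested genes at the same threshold (7986 of 12248, edgeR quasi-likelihood test, adjusted p below 0.05), of which 32.6% were higher and 32.7% lower, so the share is no larger than in the table as a whole. In the same 4 genes no BC CML mouse overlapped a CP CML mouse, which held for 36.9% of tested genes, 19.3% with BC CML higher and 17.6% with BC CML lower. The median log2 fold change (BC CML over CP CML) was 0.044 over the 8 genes and -0.0083 over all tested genes. Levels are TMM-normalised counts scaled to a common library size (CPM). In bulk RNA, fewer cells of a type and less RNA per cell cannot be told apart. All names of CP CML columns share one prefix and all BC CML columns another, so any difference in handling that goes with the group cannot be told apart from it either.

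**Figure D1:**
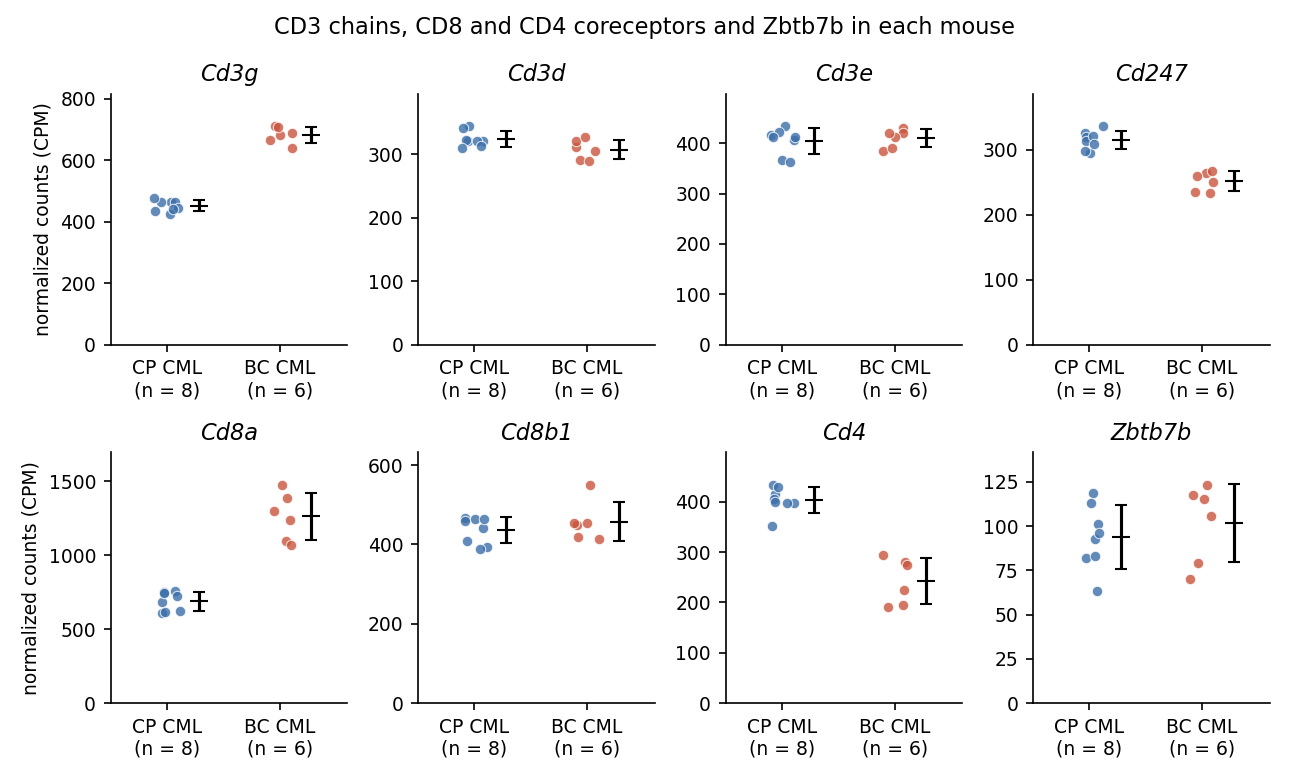
Normalised counts (CPM, linear axes from 0, one scale per panel) of the 8 genes, with 1 point per mouse for 8 CP CML and 6 BC CML mice and the mean ± SD beside the points. The BC CML points lie above all CP CML points for Cd3g and Cd8a and below them for Cd247 and Cd4. For the other 4 genes the ranges of the groups overlap.

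Cd3g, the γ chain, lies on the minus strand at chr9:44969572-44980431 (mm10, as listed with the counts), 1354 bases from Cd3d, which runs the other way. In CP CML its lowest, median and highest CPM were 425.8, 453.3 and 476.3, and in BC CML 640.6, 684.9 and 711.0. The groups did not overlap, and the gap between the highest CP CML and the lowest BC CML mouse was wider than the range within either group. The means were 452.0 ± 17.8 (SD, n = 8) and 682.6 ± 27.0 (n = 6), 1.51-fold higher in BC CML, which is 0.59 ± 0.036 (SE) on the log2 scale (adjusted p = 1.7e-10, edgeR). The counts behind these values were 6948 to 9505 reads per library in CP CML and 11051 to 13792 in BC CML.

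Cd3d, the δ chain on the plus strand at chr9:44981786-44987052, had 310.9, 321.0 and 344.5 CPM in CP CML and 289.7, 308.5 and 327.0 in BC CML. The groups overlapped, with means of 324.3 ± 12.3 and 307.6 ± 15.2. Its log2 fold change was -0.08 ± 0.037 with a 95% interval from -0.16 to 0.0026 and an adjusted p of 0.0829 (edgeR). Without BC CML replicate 6 it passed, at -0.09 with an adjusted p of 0.0415, and the number of genes called rose from 4 to 5.

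Cd3e, the ε chain, lies 11690 bases beyond Cd3d on the minus strand (chr9:44998743-45009590). Its CPM was 362.9, 412.0 and 433.8 in CP CML and 385.0, 416.1 and 430.4 in BC CML, so that all BC CML mice fell within the CP CML range. The log2 fold change was 0.02 ± 0.045, with a 95% interval from -0.07 to 0.11 and an adjusted p of 0.705 (edgeR).

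Cd247, the ζ chain, is on another chromosome (plus strand, chr1:165788681-165871153). Its CPM was 295.1, 316.5 and 336.3 in CP CML and 234.0, 255.6 and 268.0 in BC CML, without overlap. The means were 314.9 ± 13.9 and 252.0 ± 14.8, 1.25-fold lower in BC CML, at -0.32 ± 0.041 on the log2 scale with an adjusted p of 2.5e-06 (edgeR). Pou2f1, a transcription factor gene on the opposite strand, overlaps the listed end of Cd247, and the strand setting of the counting is not given, so reads there cannot be told apart. Pou2f1 had mean CPM of 106 in CP CML and 105 in BC CML.

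The chains were also set against each other within each library, where scaling between libraries plays no part. The reads of Cd3g per read of Cd3e were 1.05, 1.11 and 1.27 (lowest, median and highest) in CP CML and 1.52, 1.63 and 1.85 in BC CML. The ratio was higher in every BC CML mouse, by 0.57 ± 0.056 on the log2 scale (exact two-sided permutation test over 3003 splits, p = 0.000666, the smallest this design allows; adjusted p over the 10 ratios tested = 0.000833). Cd247 per Cd3e was 0.723, 0.769 and 0.888 in CP CML and 0.558, 0.605 and 0.686 in BC CML. It was lower in every BC CML mouse (log2 difference -0.34 ± 0.063), with the same exact permutation p. Cd3d per Cd3e overlapped, at 0.740, 0.785 and 0.939 against 0.689, 0.733 and 0.837, with a log2 difference of -0.10 ± 0.068 (exact permutation test, p = 0.172, adjusted p = 0.172).

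Per kilobase of listed gene length, Cd3g was the highest of the 8 genes in both groups, at 444.9 and 671.8 CPM per kb, and Cd247 the lowest CD3 chain, at 68.6 and 54.9. The ranges of Cd3g, Cd3d and Cd3e all lay above that of Cd247 on this scale. In CP CML Cd3e (254.1 to 303.8 CPM per kb) and Cd3d (234.7 to 260.0) were neighbours that overlapped. In BC CML they did not overlap, at 269.6 to 301.4 and 218.7 to 246.8.

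Cd8a, the α chain of CD8, is on the plus strand at chr6:71373427-71379171. Its CPM was 611.7, 704.4 and 760.2 in CP CML and 1071, 1269 and 1478 in BC CML, without overlap. The means were 688.9 ± 64.3 and 1263 ± 160, 1.83-fold higher in BC CML, at 0.87 ± 0.076 on the log2 scale with an adjusted p of 2.4e-08 (edgeR), the largest fold change of the 8 genes. It had 10047 to 15170 reads per library in CP CML and 20310 to 28159 in BC CML.

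Cd8b1, the β chain, lies on the same strand 35975 bases upstream of Cd8a (chr6:71322812-71337451). Its CPM was 388.3, 451.3 and 466.3 in CP CML and 413.8, 452.1 and 550.4 in BC CML, with nearly equal medians. The groups overlapped, with means of 436.0 ± 33.5 and 457.2 ± 49.0 and a log2 fold change of 0.07 ± 0.063 (95% interval -0.06 to 0.20, adjusted p = 0.352, edgeR). The interval of Cd8b1 ends below the lower bound for Cd8a, 0.71.

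The reads of Cd8a per read of Cd8b1 were 1.52, 1.57 and 1.63 in CP CML and 2.59, 2.72 and 3.06 in BC CML. Of the 10 ratios this one varied least among the mice of each group (SD of log2 0.037 in CP CML and 0.090 in BC CML), and every BC CML mouse lay above them, by 0.80 ± 0.039 on the log2 scale or 1.75-fold (exact permutation test, p = 0.000666, adjusted p = 0.000833). Per kilobase the ratio ran from 0.684 to 0.736 in CP CML and from 1.17 to 1.38 in BC CML, so Cd8b1 was the higher of the pair in each CP CML mouse and Cd8a in each BC CML mouse. Within a group the 2 genes still moved together from mouse to mouse. In CP CML the log2 levels had a Pearson r of 0.973 (exact permutation p = 0.000992, adjusted over 10 relations 0.00992) and a Spearman rho of 0.905 (exact p = 0.00456, adjusted 0.0456), and r was 0.976 without the 2 mice farthest from the median. In BC CML r was 0.874 (exact p = 0.00556, adjusted 0.0278) and rho 0.943 (exact p = 0.0167, adjusted 0.0833), and r was 0.916 without 2 mice.

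Because CD8α homodimers occur on dendritic cells, that list is given beside Cd8a. Of 12 dendritic cell genes 9 were tested, of which 5 rose in BC CML and 0 fell, where 32.6% of all tested genes rose. The summed level was 112 to 168 CPM in CP CML and 280 to 476 in BC CML. Ccr9 alone had means of 82.0 CPM in CP CML and 206.5 in BC CML, the larger part of that sum. The genes that rose were Itgax (CD11c, log2 fold change 2.74, adjusted p = 4.8e-07, edgeR), Flt3 (1.46, adjusted p = 0.0293), Ccr9 (1.33, adjusted p = 1.5e-06), which is also on the CD8 T cell list, Irf8 (1.20, adjusted p = 9.2e-07) and Zbtb46 (1.09, adjusted p = 0.00067). Irf8, a factor of CD8α dendritic cells that other leukocytes also express, had means of 22.8 CPM in CP CML and 52.6 in BC CML. Xcr1 and Clec9a, surface markers of the same subset, had 0.334 and 0.563 CPM in CP CML and 0.349 and 0.887 in BC CML, and Clec9a did not pass the test (adjusted p = 0.184, edgeR). Batf3, another factor of this subset, had 0.273 CPM in CP CML and 0.592 in BC CML, with overlapping groups, and Siglech, a marker of plasmacytoid dendritic cells, had 0.0637 and 0.743 without overlap. Xcr1, Batf3 and Siglech were below the filter and not tested, and Cd209a, Clec10a and Bst2 did not pass. The part of dendritic cells in the Cd8a result was not tested.

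Cd4, on the minus strand at chr6:124864693-124888209, had 352.0, 402.7 and 433.8 CPM in CP CML and 191.2, 249.5 and 295.2 in BC CML. The groups did not overlap, and the BC CML mice were more spread, with a coefficient of variation of 18.8% against 6.25%. The means were 403.6 ± 25.2 and 243.3 ± 45.8, 1.66-fold lower in BC CML, at -0.73 ± 0.094 on the log2 scale with an adjusted p of 5.0e-06 (edgeR). The counts were 5597 to 8657 reads per library in CP CML and 3606 to 5451 in BC CML. Per read of Cd3e the Cd4 ratio was 0.854, 1.00 and 1.09 in CP CML and 0.455, 0.593 and 0.767 in BC CML, lower in every BC CML mouse (log2 difference -0.77 ± 0.13, exact permutation p = 0.000666, adjusted p = 0.000833).

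The CD8 to CD4 ratio of each mouse joined these changes. The reads of Cd8a per read of Cd4 were 1.47, 1.69 and 2.11 in CP CML and 3.73, 5.10 and 7.61 in BC CML. The lowest BC CML mouse stood above the highest CP CML mouse, and the mean log2 ratio was higher by 1.62 ± 0.19, or 3.07-fold (exact permutation p = 0.000666, adjusted p = 0.000833). With the β chain in place of the α chain the ratio was 0.949, 1.08 and 1.32 in CP CML and 1.42, 1.82 and 2.83 in BC CML. It was again higher in every BC CML mouse, but by 0.82 ± 0.17 on the log2 scale or 1.76-fold, with the same exact permutation p. The size of the shift thus differed by the chain used to measure CD8, by the 0.80 of the Cd8a to Cd8b1 ratio.

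**Figure D2:**
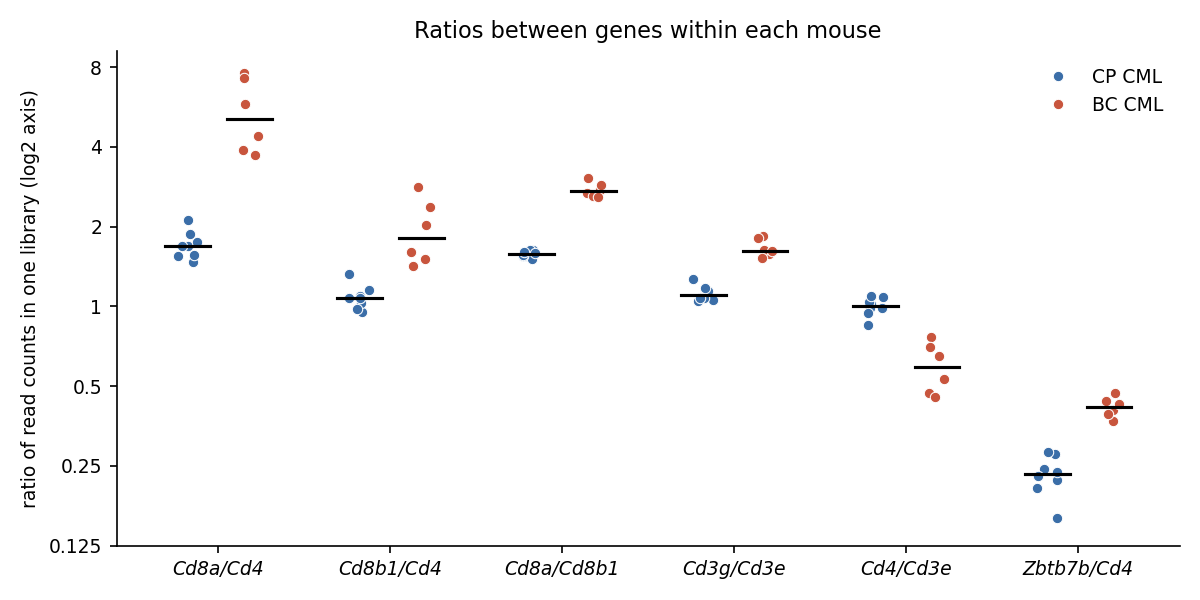
Ratios of read counts between 2 genes within one library (log2 axis), with 1 point per mouse and a line at the group's median. The CP CML and BC CML points are apart in each of the 6 ratios shown. Cd8a/Cd8b1 has the tightest CP CML points and Cd8a/Cd4 the largest shift, from a median of 1.69 to 5.10.

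Zbtb7b, on the minus strand at chr3:89377646-89393203, did not move with Cd4 between the groups. Its CPM was 63.2, 94.2 and 118.8 in CP CML and 70.4, 110.6 and 123.3 in BC CML. The groups overlapped over most of their range, and the log2 fold change was 0.12 ± 0.15 (95% interval -0.21 to 0.45, adjusted p = 0.510, edgeR). This standard error was the largest of the 8 genes, and the coefficient of variation among mice was 19.1% in CP CML and 21.5% in BC CML. The overlapping antisense gene Gm15417 had a mean of 0.721 CPM in CP CML and 1.30 in BC CML. Per read of Cd4, Zbtb7b had 0.159, 0.232 and 0.282 reads in CP CML and 0.368, 0.417 and 0.471 in BC CML. Each BC CML mouse lay above each CP CML mouse, by 0.86 ± 0.11 on the log2 scale or 1.82-fold (exact permutation p = 0.000666, adjusted p = 0.000833).

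Runx3, the factor opposite ThPOK, had 186.6 ± 20.8 CPM in CP CML and 255.2 ± 41.5 in BC CML. It rose by 0.45 ± 0.094 on the log2 scale (adjusted p = 0.00054, edgeR), although the groups overlapped. The ratio of Runx3 to Zbtb7b was 1.68, 1.94 and 2.56 in CP CML and 1.79, 2.57 and 3.66 in BC CML. The ranges overlapped and the difference of 0.33 ± 0.20 on the log2 scale did not pass the test (exact permutation p = 0.101, adjusted p = 0.112).

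Among the 6 BC CML mice, the 2 with the least Cd4 (replicates 3 and 4) had the most Cd8a and the least Zbtb7b. Across these mice the log2 levels of Cd4 and Zbtb7b had r = 0.933 (exact permutation p = 0.0167, adjusted 0.0556) and rho = 0.829 (exact p = 0.0583, adjusted 0.194), and r was 0.817 without 2 mice. For Cd4 and Cd8a r was -0.91 (exact p = 0.0222, adjusted 0.0556) and rho -0.77 (exact p = 0.103, adjusted 0.206), with r at -0.73 without 2 mice. Neither relation passed after adjustment over the 10 relations. In CP CML r was 0.455 for Cd4 with Zbtb7b (exact p = 0.276, adjusted 0.446, rho 0.667) and -0.02 for Cd4 with Cd8a (exact p = 0.989, adjusted 0.989, rho 0.214). Cd3e with Cd3d and Cd3e with Cd247 did not pass in either group, with r from -0.72 to 0.131 over all mice of a group. Without the 2 mice farthest from the median of Cd3e, r with Cd247 was 0.871 in CP CML and 0.872 in BC CML. With Cd3d it was 0.026 in CP CML and 0.247 in BC CML, beside -0.41 and -0.72 over all mice. The values over all mice thus rest on those 2 mice.

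**Figure D3:**
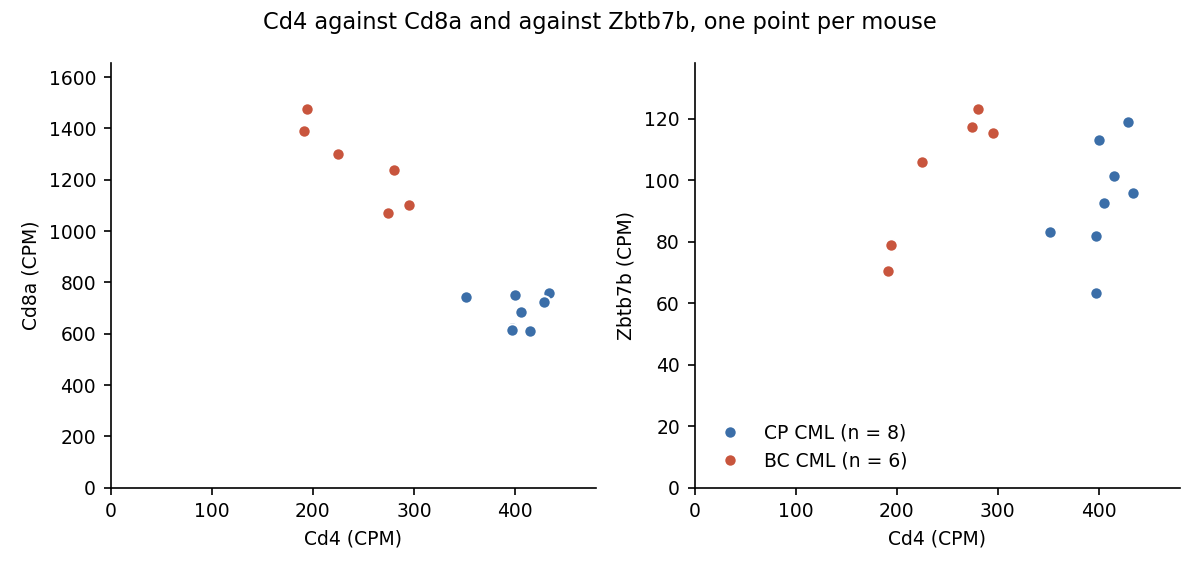
Cd4 against Cd8a (left) and against Zbtb7b (right), all in CPM on linear axes from 0, with 1 point per mouse, some of which lie on top of each other. The BC CML mice spread from low Cd4 with high Cd8a and low Zbtb7b to higher Cd4 with lower Cd8a and higher Zbtb7b, while the CP CML mice form a separate cluster at higher Cd4.

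Ordered by CPM per kb, the genes of CP CML ran from Cd3g (444.9) over Cd8b1 (309.2), Cd3e (283.0), Cd3d (244.8), Cd8a (220.5), Cd4 (101.3) and Cd247 (68.6) to Zbtb7b (20.3). The ranges of Cd8b1 and Cd3e, of Cd3e and Cd3d, and of Cd3d and Cd8a overlapped there. In BC CML the order was Cd3g (671.8), Cd8a (404.2), Cd8b1 (324.3), Cd3e (287.0), Cd3d (232.2), Cd4 (61.1), Cd247 (54.9) and Zbtb7b (22.1). There the ranges of Cd8a and Cd8b1 and of Cd8b1 and Cd3e overlapped. Cd8a thereby moved past Cd3d, Cd3e and Cd8b1 in the order of means, and Cd4, which had not overlapped Cd247 in CP CML, overlapped it in BC CML (48.0 to 74.1 against 50.9 to 58.3).

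The genes most like Cd3e, Cd4 and Cd8a were sought by the Pearson correlation of log2 CPM, centred within each group, over the 14 mice among 9161 genes. All points share their library, so the values are a description. For Cd4 they were Izumo1r, which encodes the surface protein FR4 of helper and regulatory T cells (r = 0.896), the oxysterol receptor gene Gpr183 (0.887) and Nrp1 (0.853). Gpr183 fell in BC CML, as Cd4 did (log2 fold change -0.39, adjusted p = 0.00036, edgeR). Izumo1r and Nrp1 did not pass between the groups, with log2 fold changes of -0.16 (adjusted p = 0.237, edgeR) and -0.17 (adjusted p = 0.0963). For Cd8a they were Ctsw, a cathepsin gene of cytotoxic lymphocytes (0.952), Cd8b1 (0.918) and Il10rb (0.892). Ctsw and Il10rb rose with Cd8a, by 1.31 (adjusted p = 6.7e-12, edgeR) and 0.85 (adjusted p = 2.6e-09) on the log2 scale. For Cd3e they were Marf1, Herc2 and Klc1 (0.957, 0.954 and 0.953).

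The genes around the receptor complex were read from lists, whose counts stand beside 65.2% of all tested genes called, 32.6% higher and 32.7% lower. Of the 9 T cell surface genes tested 8 rose and 1 fell, with a median log2 fold change of 0.43, and their summed level was 5635 to 6309 CPM in CP CML and 8305 to 8668 in BC CML. Ptprc (CD45) alone had means of 3712 CPM in CP CML and 4997 in BC CML, the larger part of that sum. The part of other leukocytes in this list was not tested. The T cell receptor constant genes Trac, Trbc1 and Trbc2 were not found by symbol in the counts, so they were not read. Cd27, a costimulatory receptor, rose from 245.1 ± 24.99 to 480.1 ± 26.6 CPM (log2 fold change 0.97, adjusted p = 2.2e-10, edgeR). Thy1, a pan-T cell surface protein, rose by 0.67 (adjusted p = 3.5e-08) and Cd52 by 0.66 (adjusted p = 9.6e-09), whereas Trat1, an adaptor associated with the receptor, fell by 0.16 (adjusted p = 0.031). Most of this list was therefore higher in BC CML, while of the CD3 chains only Cd3g was.

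Of 15 proximal signalling genes 11 passed, 8 higher and 3 lower (median 0.14), a share near the 65.2% of all tested genes. Lck, the coreceptor kinase, had 777.3 ± 82.1 CPM in CP CML and 848.1 ± 73.3 in BC CML, with overlapping groups and a log2 fold change of 0.13 (adjusted p = 0.117, edgeR). Zap70, the kinase recruited by the phosphorylated CD3 and ζ chains, rose from 214.0 ± 9.68 to 266.7 ± 9.13 CPM without overlap (0.32, adjusted p = 5.3e-07), and so moved opposite to Cd247. Themis, which is needed for thymocyte selection, rose by 0.67 (adjusted p = 9.7e-10) and the phosphatase gene Ptpn22 by 0.36 (adjusted p = 0.00025). Pag1, whose product recruits the Lck inhibitor Csk, fell by 0.28 (adjusted p = 2.3e-06), and the adaptor genes Skap1 by 0.26 (adjusted p = 3.8e-05) and Sh2d2a by 0.24 (adjusted p = 0.00088).

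Of 20 lineage factor genes 16 passed, 9 higher and 7 lower (median 0.07), beside 65.2% of all tested genes, which also split nearly evenly. Besides Runx3, Tcf12 (0.31, adjusted p = 3.6e-06, edgeR), Tox (0.37, adjusted p = 0.00054) and Gata3 (0.25, adjusted p = 0.0052) rose. Lef1 fell by 0.70 (adjusted p = 4.6e-07), Tcf7 by 0.67 (adjusted p = 7.1e-08) and Runx1 by 0.61 (adjusted p = 2.4e-06), each without overlap between groups. Runx1 binds, as Runx3 does, to the Cd4 silencer. Its level was 100.7 ± 4.47 CPM in CP CML and 66.0 ± 10.5 in BC CML.

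Of 15 genes of CD4 T cells 9 passed, a share below the 65.2% of all tested genes. Of these 8 fell and 1 rose (median over the list -0.26), beside 32.7% of all tested genes lower and 32.6% higher. Their summed levels overlapped, at 1111 to 1257 CPM in CP CML and 898 to 1209 in BC CML. Foxp3, the factor of regulatory T cells, fell from 94.2 ± 8.14 to 28.5 ± 4.32 CPM (log2 fold change -1.73, adjusted p = 1.4e-11, edgeR), further than Cd4 itself. Ctla4 fell by 1.34 (adjusted p = 2.9e-07) and Cxcr5, the follicular homing receptor, by 1.17 (adjusted p = 0.00033). The gene that rose was Ikzf2 (0.62, adjusted p = 0.00018). Trat1 is also on the surface list.

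Of 15 genes of CD8 T cells 13 rose and 1 fell (median 1.33), beside 32.6% and 32.7% of all tested genes, and their summed level was 884 to 1056 CPM in CP CML and 2225 to 2728 in BC CML. Klrc1 (2.48, adjusted p = 2.6e-10, edgeR), Xcl1 (2.39, adjusted p = 6.8e-10) and Cd160 (2.25, adjusted p = 3.3e-14) rose most, and Dapl1 fell by 0.50 (adjusted p = 0.0058). Several of these genes, Klrc1, Xcl1, Cd160 and Eomes among them, are also expressed by natural killer (NK) cells, and Eomes is on the NK list too. Of 12 NK genes 11 were tested, 10 rose and 1 fell (median 1.77), with 223 to 281 CPM in CP CML and 564 to 812 in BC CML. The NK receptor gene Klra8 had at most 5 reads in a CP CML library and 185 to 326 in BC CML. It passed the filter only through the BC CML libraries, so its place among the 10 that rose depended on them. Other NK genes were read in CP CML too and rose less. Klrb1c rose from 49.7 to 146.5 CPM (1.56, adjusted p = 5.7e-07, edgeR) and Klra7 from 10.1 to 20.4 (1.01, adjusted p = 0.0015). Klri2 rose from 2.78 to 21.2 CPM (2.93, adjusted p = 1.9e-11), Ncr1, the NK receptor NKp46, from 2.61 to 10.5 (2.01, adjusted p = 3.4e-05), and the perforin gene Prf1 fell by 0.18 (adjusted p = 0.0189). Klra4 had no reads. The part of NK cells in the Cd8a result was not tested.

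**Figure D4:**
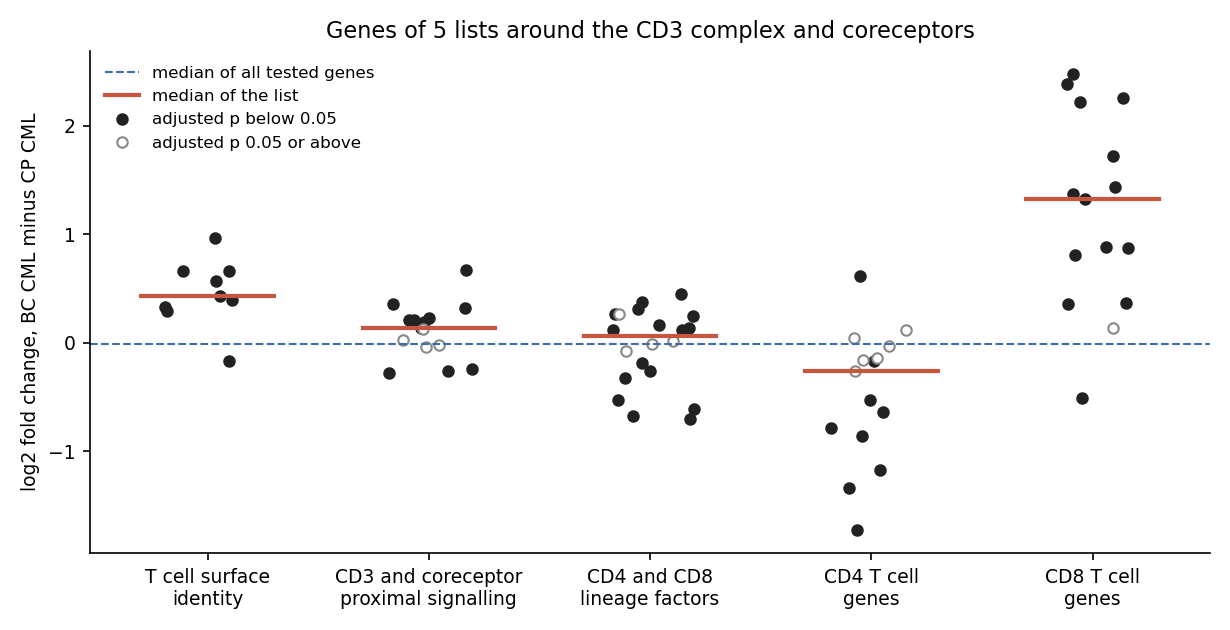
Log2 fold changes (BC CML minus CP CML) of the genes of 5 lists, with 1 point per gene, filled where the adjusted p was below 0.05, a line at the median of each list and a dashed line at the median of all tested genes. The medians run from -0.26 for CD4 T cell genes to 1.33 for CD8 T cell genes.

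Genes of other cells were read in the same way. Of 16 listed genes of double negative, γδ and NKT cells 7 were tested. The others, all γδ receptor genes, were not found by symbol in the counts. Of the 7, 4 rose and 1 fell, a share near the 65.2% of all tested genes, where 32.6% rose and 32.7% fell. Zbtb16 fell by 2.28 on the log2 scale (adjusted p = 3.0e-07, edgeR) and Cd163l1 rose most, by 2.34 (adjusted p = 0.00013). Summed levels were 73.5 to 106 CPM in CP CML and 131 to 291 in BC CML. Of 14 myeloid genes 13 rose (82.5 to 738 CPM against 861 to 2249), of 9 B cell genes 8 rose (42.6 to 158 against 77.8 to 477), and of 6 tested erythroid genes 3 rose (19.7 to 77.7 against 66.0 to 101), where 32.6% of all tested genes rose. None of the defining genes Lyz2, Cd79a or Hbb-bs was at 0 in any library, while Elane was at 0 in the lowest CP CML library. With the mean myeloid level of each library as a covariate, Cd3g (0.60, adjusted p = 5.3e-07, edgeR), Cd247 (-0.32, adjusted p = 0.00088), Cd4 (-0.68, adjusted p = 0.0019) and Cd8a (1.00, adjusted p = 3.4e-06) passed and the other 4 genes did not. That level, a mean of log2 CPM, was 1.04 to 4.61 in CP CML and 4.82 to 5.91 in BC CML, so no mice of equal myeloid level were compared and its part in the results cannot be told apart from the group. The part of B and erythroid genes in the results was not tested.

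**Figure D5:**
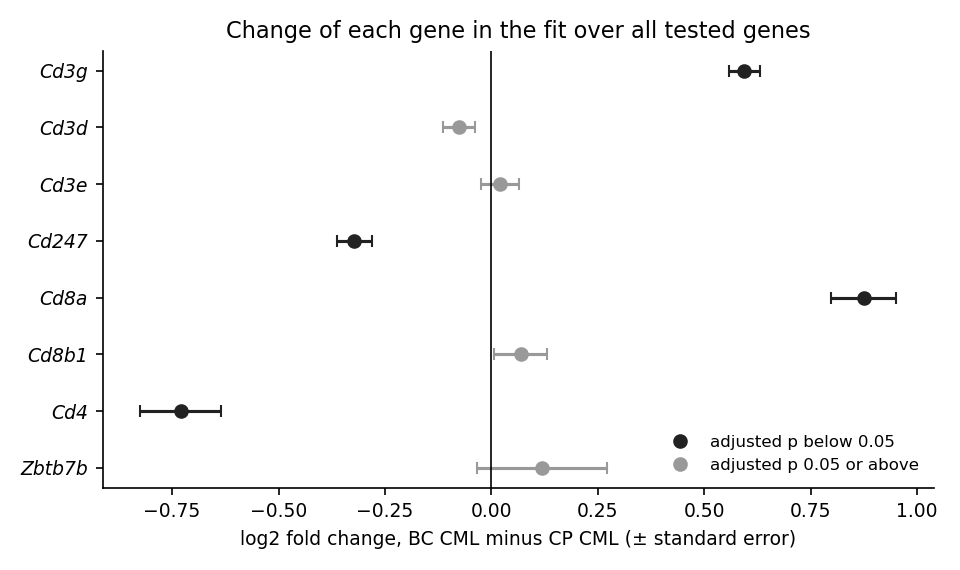
Log2 fold change (BC CML minus CP CML) of the 8 genes in the fit over all tested genes, with bars of ± 1 standard error. Cd3g and Cd8a lie above 0 and Cd247 and Cd4 below it, and the 4 grey points had an adjusted p of 0.05 or above.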

How the data were processed

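The authors trimmed reads with Trimmomatic and FASTP, aligned them to mm10 with STAR 2.6.0, counted them per gene with HTSeq 0.11.1 and deposited raw read counts with gene positions and lengths. The annotation, the strand setting and the gate of the T cell sort for these libraries are not given in the sources used here, so overlapping and antisense genes cannot be separated. Genes were filtered with filterByExpr, normalised by TMM and tested with edgeR 4.0.16 (limma 3.58.1, R 4.3.3) by the robust quasi-likelihood test without covariates, with Benjamini-Hochberg adjustment over 12248 genes at 0.05. CPM were relative to the reads of the genes that passed the filter. Ratios used raw counts in an exact permutation test (scipy 1.17.1). Intervals on log2 fold changes are 95% intervals from the standard error and the fit's degrees of freedom.

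Depth was 15703702 to 19914531 reads in CP CML and 16145537 to 19399720 in BC CML. Pairs of replicates differed by more than sampling noise (chi-square per degree of freedom 3.09 to 22.8). Each library was from its own mouse by the study's methods. Same-numbered mice were not paired (correlations of their deviations -0.27 to 0.356).

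The genes, the lists and the rule for naming other genes were chosen with earlier results of these data known. That rule took the 3 genes with the largest rise and the 3 with the largest fall of each list among those that passed and averaged 2 or more on the log2 CPM scale, and Runx1, Runx3, Gata3, Tox, Lck and Zap70 whatever their values. The likeness search took genes with an average log2 CPM of at least 3. Not all genes of that rule are named. Pou2f1, Gm15417, Ptprc, Xcr1, Clec9a, Batf3, Siglech, Cd209a, Clec10a, Bst2, Flt3, Zbtb46, Klra4, Klra7, Klrb1c, Eomes and Hbb-bs were named outside it, after their values had been seen. The results were recomputed with other filters on low counts, with DESeq2 1.42.0, with scaling by RLE factors or by library size only, with the likelihood ratio test of edgeR, with the myeloid level or the replicate number in the model, and with each mouse left out.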

Additional observations from a re-analysis of the deposited data

Results flagged for a closer look

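In each group, the gap of the highest and the lowest mouse to the next, as a share of the group's range, was set against Dixon's 95% critical value. It was above that value in 4 of 41 groups of values, and chance gives about 1 in 20, or 2.05. Cd4 of CP CML replicate 8 was the lowest at 352.0 CPM, with the next mouse at 396.8, a gap of 0.547 of the range. Cd8b1 of BC CML replicate 3 was the highest at 550.4 CPM, with the next at 455.1, a gap of 0.698. The log2 ratio of Cd8a to Cd3e of CP CML replicate 1 was the lowest at 0.59, with the next at 0.74, a gap of 0.529. The total of BC CML replicate 2 was the lowest at 16145537 reads, with the next at 18319039, a gap of 0.668. Leaving out any of these mice kept the calls of the 8 genes.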

How the results depend on the processing

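Over 8 other settings, 5502 (myeloid level as a covariate) to 8719 genes (no filter) passed, beside 7986, and 7721 to 7966 with each mouse left out. The genes called among the 8 were 4 in each of these settings and 4 or 5 with a mouse left out. Log2 fold changes over the settings ran from 0.58 to 0.60 for Cd3g, from -0.34 to -0.32 for Cd247, from -0.78 to -0.68 for Cd4 and from 0.86 to 1.00 for Cd8a. With each mouse left out, Cd3d ran from -0.095 to -0.061 and passed only without BC CML replicate 6 (-0.095, adjusted p = 0.0415, edgeR), and Cd3e ran from -0.0012 (without CP CML replicate 7, adjusted p = 0.982) to 0.035. With the replicate block Zbtb7b was -0.00057 (adjusted p = 0.996, edgeR). CP CML replicates 7 and 8 have no BC CML mouse of the same number, so they drop out of that comparison. Replicate 7 had the lowest Zbtb7b of CP CML, at 63.2 CPM, and without that mouse alone the log2 fold change was 0.054. The mice share only a number. The log2 Cd8a to Cd4 ratio was 1.51 to 1.72 with each mouse left out and 1.65 in the replicate block (exact sign-flip test over 6 pairs, adjusted p = 0.0391), and the 10 ratios kept their side of the threshold. The block left 7318 genes called. With the myeloid covariate 3 dendritic cell, 0 B cell, 4 myeloid and 0 erythroid genes passed, beside 5, 8, 13 and 3. This covariate does not overlap between the groups. The scalings tried moved the median of all genes by less than 0.1. The depth of these genes, at 1032 reads or more per library, makes spread between mice the larger limit for all 8.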
